A study of Mus musculus with 12 samples.

Results

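The genes described here are the proton pumps, carbonic anhydrases and bicarbonate, ammonia and proton transporters that handle acid and base, as measured in the renal cortex of mice. They were chosen by gene symbol from the annotation of the array: every subunit of the vacuolar proton pump (Atp6v0 and Atp6v1), every carbonic anhydrase (Car) and every member of the Slc4 bicarbonate transporter family, together with Atp6ap1, Atp12a, Atp4a, Slc26a4, Slc9a3, Rhcg, Rhbg and Foxi1. This gave 103 of the 45101 probe sets of the array, which stand for 53 genes. Of these, 78 probe sets of 49 genes had enough signal to be tested, among 24790 tested probe sets of 12385 genes in all. Car1, Car6, Slc4a10 and Slc4a5, each with 1 probe set, did not pass the signal filter. The subunits Atp6v1g3 and Atp6v0c and the transporter Slc4a7 were not analysed here.

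The diseased animals were ICGN mice, an ICR-derived line with a Tns2 mutation that develops a nephrotic syndrome, at 8 weeks and at 4 weeks of age. Their controls were ICR mice, labelled normal, at the same ages. Each of the 4 groups has 3 Affymetrix Mouse Genome 430 2.0 arrays, and no group received a treatment. The labels speak of 1 mouse for each numbered array but give no animal identifiers and no sex, so p-values reflect only how far these samples vary, which may be technical. Disease and strain background cannot be told apart, because ICGN and ICR are 1 strain each. Cortex is a mixture of cells, so fewer cells of a type and less RNA per cell cannot be told apart either.

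The kidney keeps blood pH stable along the whole nephron. The proximal tubule recovers filtered bicarbonate with the sodium-proton exchanger NHE3 (Slc9a3), carbonic anhydrases and the bicarbonate cotransporter NBCe1 (Slc4a4), while intercalated cells of the connecting tubule and collecting duct secrete acid or bicarbonate with the vacuolar proton pump, anion exchangers and ammonia channels. The vacuolar pump, or V-ATPase, has a cytosolic V1 part that splits ATP and a membrane V0 part that carries the protons. Most of its subunits acidify lysosomes and endosomes in every cell, while some isoforms, such as B1 (Atp6v1b1), a4 (Atp6v0a4) and d2 (Atp6v0d2), are enriched in acid-secreting cells.

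The promoters of 4 pump genes are shown. Atp6v0d1 and Atp6v1a are broadly used subunits, while Atp6v1b1 and Atp6v0a4 have restricted expression. As given below, Atp6v0d1, Atp6v1a and Atp6v0a4 were called lower in ICGN cortex at 8 weeks, and Atp6v1b1 was not called. Each sequence runs from 250 bases before to 50 bases after the start of the gene in RefSeq (build GRCm38.p6). A search of both strands was made for TCACGTGA, which is its own reverse complement and is the kind of E-box bound by the lysosomal regulator TFEB. A second search was made for TGTTTAC, a core of forkhead sites such as those of Foxi1, the transcription factor that specifies intercalated cells. Capitals mark a match. The sequences lie at chr8:105566015-105566314 (minus strand, Atp6v0d1), chr16:44139210-44139509 (minus strand, Atp6v1a), chr6:83742767-83743066 (plus strand, Atp6v1b1) and chr6:38124537-38124836 (minus strand, Atp6v0a4).
Atp6v0d1: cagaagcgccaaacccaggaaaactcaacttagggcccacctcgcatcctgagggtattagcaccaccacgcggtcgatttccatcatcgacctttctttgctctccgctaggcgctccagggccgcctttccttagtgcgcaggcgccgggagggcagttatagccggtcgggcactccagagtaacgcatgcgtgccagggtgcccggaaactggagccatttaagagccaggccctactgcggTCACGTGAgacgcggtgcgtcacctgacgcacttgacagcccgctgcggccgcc
Atp6v1a: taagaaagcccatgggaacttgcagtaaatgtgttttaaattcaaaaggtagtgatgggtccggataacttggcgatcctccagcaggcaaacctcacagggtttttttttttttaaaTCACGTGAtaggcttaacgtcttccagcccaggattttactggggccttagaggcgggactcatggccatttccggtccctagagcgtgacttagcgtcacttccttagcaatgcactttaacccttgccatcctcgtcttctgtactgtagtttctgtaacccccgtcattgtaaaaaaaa
Atp6v1b1: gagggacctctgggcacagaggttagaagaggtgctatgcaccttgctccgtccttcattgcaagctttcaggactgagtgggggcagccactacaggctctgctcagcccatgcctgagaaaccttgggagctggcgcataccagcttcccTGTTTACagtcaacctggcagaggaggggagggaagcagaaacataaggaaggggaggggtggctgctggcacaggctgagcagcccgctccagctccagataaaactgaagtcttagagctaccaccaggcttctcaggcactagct
Atp6v0a4: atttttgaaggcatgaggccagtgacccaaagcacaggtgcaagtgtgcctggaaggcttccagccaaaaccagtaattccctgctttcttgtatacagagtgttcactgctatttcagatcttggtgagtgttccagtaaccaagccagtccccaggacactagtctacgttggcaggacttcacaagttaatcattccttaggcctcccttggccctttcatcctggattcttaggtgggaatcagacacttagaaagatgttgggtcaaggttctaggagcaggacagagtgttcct

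Promoters were listed for 37 of the 53 genes, 14 of them V-ATPase subunits. TCACGTGA occurred in 3 of these, Atp6v0d1, Atp6v0e and Atp6v1a, all of them broadly used subunits, and in 0.974% of all 32851 promoters of the same length (320 promoters). TGTTTAC occurred in Atp6v1b1 and Car5a and in 3.65% of all promoters (1199 promoters). The window of Atp6v0a4 held neither, which says only that these letters are absent from these 300 bases. Of the 3 genes with TCACGTGA, Atp6v0d1 and Atp6v1a were called lower in ICGN cortex at 8 weeks, as given below. Atp6v0e, whose promoter is not shown, was not called. A link of these letters to the levels was not tested.

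Signals as deposited had array medians of 17.4 to 19.0 at 4 weeks and of 75.3 to 108 at 8 weeks, because the authors brought the arrays of each age to a target of their own. All signals below were rescaled so that the median of the tested probe sets was equal in all 12 arrays. Log2 signals of arrays within a group correlated across genes with r of 0.975 to 0.987. Tns2, the gene mutated in ICGN mice, was 1.94 lower on the log2 scale in ICGN than in ICR cortex at 8 weeks and 1.95 lower at 4 weeks. Havcr1, which encodes the tubular injury marker Kim-1, was 4.06 higher at 8 weeks and 3.63 higher at 4 weeks.

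At 8 weeks 18 of the 49 acid-base genes differed between the strains at an adjusted p of 0.05 or less, 6 higher and 12 lower in ICGN cortex. That is 36.7% of them, close to the 33.1% of all tested genes that were called (11.4% higher and 21.7% lower). Among the called genes those highest above ICR were Car13, Car15, Atp4a and Slc4a3, and the lowest were Atp6v0a4, Car4, Car14 and Atp6v0a2. Of these genes, Slc4a3 had all 3 ICR arrays at or below their array's median signal. With arrays scaled to the median of all probe sets the split was 4 higher and 16 lower, with the authors' scaling 8 and 11, and with quantile normalization 8 and 4. At 4 weeks 6 of 49 were called, or 12.2% against 3.84% of all genes (2% higher and 1.83% lower). Atp6v0d2, Car15, Rhbg and Slc26a4 were higher, and Atp12a and Atp6v0a4 were lower. The 3 ICGN arrays lay apart from the 3 ICR arrays for 26 of 49 genes at 8 weeks (7 higher, 19 lower), where 45.7% of all genes did so, and for 12 of 49 at 4 weeks (9 higher, 3 lower), where 24.5% did so.

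**Figure D1:**
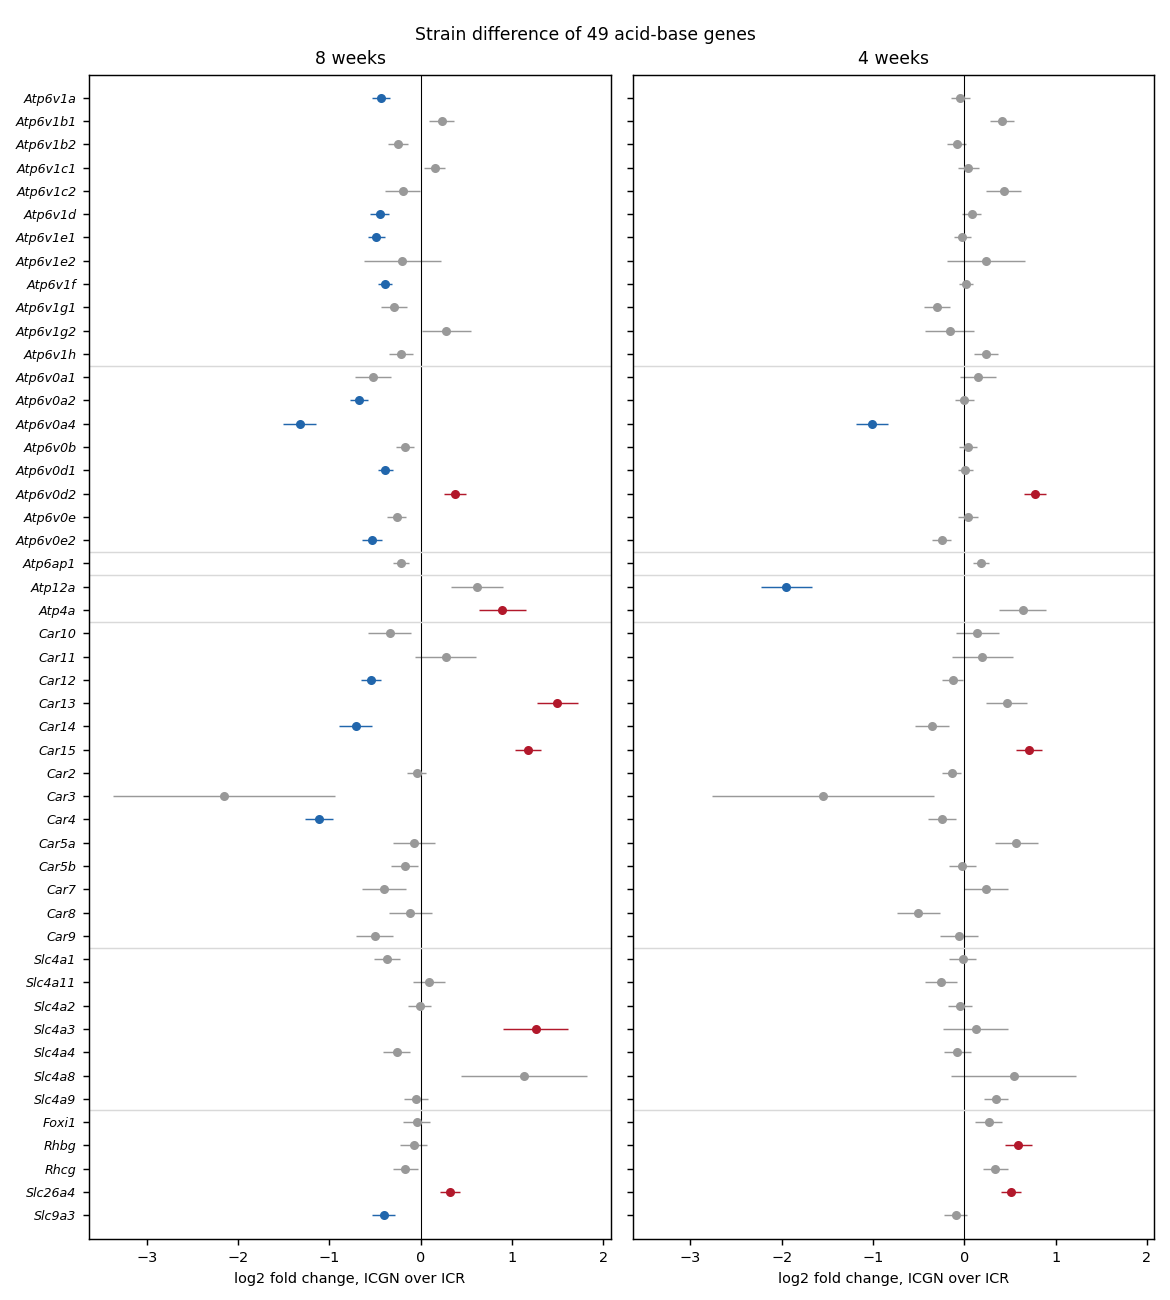
Log2 fold change of ICGN over ICR cortex for the 49 tested acid-base genes at 8 weeks (left) and 4 weeks (right), with standard errors as bars. Red points are genes called higher, blue points genes called lower and grey points genes not called at an adjusted p of 0.05. Most V-ATPase subunits lie left of 0 at 8 weeks, and Atp6v0a4 does so at both ages.

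Of the 14 broadly used V-ATPase subunits 7 fell in ICGN cortex at 8 weeks and none rose, where 21.7% of all genes fell. In all, 13 of 14 log2 fold changes lay below 0, with a median log2 fold change of -0.39 beside -0.10 for all genes. The 7 were Atp6v0a2, an a subunit of the proton channel of endosomes and Golgi (-0.68), Atp6v0e2 (-0.54), Atp6v1e1 of the peripheral stalk (-0.49), Atp6v1d of the central rotor (-0.45), Atp6v1a, the catalytic A subunit (-0.43), Atp6v1f, also of the rotor (-0.39), and Atp6v0d1, which joins the rotor to the membrane ring (-0.39). Their adjusted p-values ran between 0.000288 for Atp6v0a2 and 0.00535 for Atp6v1a.

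Atp6v0a2 had scaled signals of 257, 309 and 264 in the 3 ICGN arrays at 8 weeks, against 425, 447 and 472 in the ICR arrays. The groups did not overlap, and ICGN cortex was 1.60-fold lower (log2 -0.68 ± 0.10 SE). All 3 probe sets of Atp6v0a2 were called lower, between -0.68 and -0.54. Atp6v1a had signals of 3448, 4068 and 3939 in ICGN arrays, against 4749, 5348 and 5385 in ICR arrays, with no overlap and a 1.35-fold lower level (log2 -0.43 ± 0.10 SE). Atp6v1e1 had signals of 3343, 3543 and 3737 in ICGN arrays, against 4500.4, 5151 and 5275 in ICR arrays, again without overlap (1.40-fold lower, log2 -0.49 ± 0.09 SE). Each probe set of Atp6v1a and Atp6v1d was called lower as well, 2 and 3 of them. Of the 3 tested probe sets of Atp6v1e1, 1 was called, and the log2 fold changes ran between -0.85 and -0.44.

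The other 7 broadly used subunits were not called at 8 weeks. Log2 fold changes were -0.52 for Atp6v0a1 (adjusted p = 0.0563), -0.30 for Atp6v1g1, -0.26 for Atp6v0e, -0.25 for Atp6v1b2, -0.21 for Atp6v1h, -0.17 for Atp6v0b and 0.15 for Atp6v1c1. The other tested probe set of Atp6v1g1 was called lower (-0.53, adjusted p over probe sets = 0.0256). Among probe sets of the other genes none was called, but signs differed within some genes. They ran from -0.16 to 0.15 for Atp6v1c1 and from -0.21 to 0.60 for Atp6v1h. For Atp6v0b they ran from -0.26 to 0.19, and for Atp6v0a1 from -0.58 to 0.03. Atp6v1b2 encodes B2, the B isoform of most cells, and had signals of 3951, 4294 and 4192 in ICGN arrays, against 4245, 5085 and 5555 in ICR arrays, which overlap. Without ICR replicate 1 it was called lower (-0.36, adjusted p = 0.0188). Atp6ap1, an accessory protein needed for assembly of the pump, was at -0.21 (adjusted p = 0.0701) although its 3 ICGN arrays lay below its 3 ICR arrays. Without ICR replicate 1 of 4 weeks it was called at the same fold change (adjusted p = 0.0453).

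At 4 weeks limma called 0 of the 14 broadly used subunits, where only 3.84% of all genes were called, so 0 of 14 is near that share. Of the 14, 1 had an unadjusted p under 0.05, and their median log2 fold change was 0.01 beside -0.01 for all genes. Atp6v0a2 then had signals of 337, 329 and 337 in ICGN arrays, against 339.5, 358 and 308 in ICR arrays (log2 fold change -0.00 ± 0.10 SE). Atp6v1a had 4382, 4979 and 5259 in ICGN arrays, against 4784, 4712 and 5592 in ICR arrays. Both pairs of groups overlap.

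How many subunits were called lower depended on the scaling. With arrays scaled to the median of all probe sets 9 of 14 fell and none rose, with the authors' scaling 7 fell and Atp6v1c1 rose, and with quantile normalization 2 fell (Atp6v0a2 and Atp6v0e2) and Atp6v1c1 rose. The median of all genes moved with them, to -0.18, 0.05 and -0.03. Relative to that median, the 14 subunits stood at -0.29 in the scaling used here, -0.30 with all probe sets, -0.28 with the authors' scaling and -0.09 with quantile normalization. Over all genes, 34.4% of the calls at 8 weeks were higher in ICGN, against 24.7%, 60.2% and 50.7% with these 3 scalings. The rise of Atp6v1c1 was read from its brightest probe set. Its other tested probe sets were at -0.16 and -0.10 in the scaling used here.

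**Figure D2:**
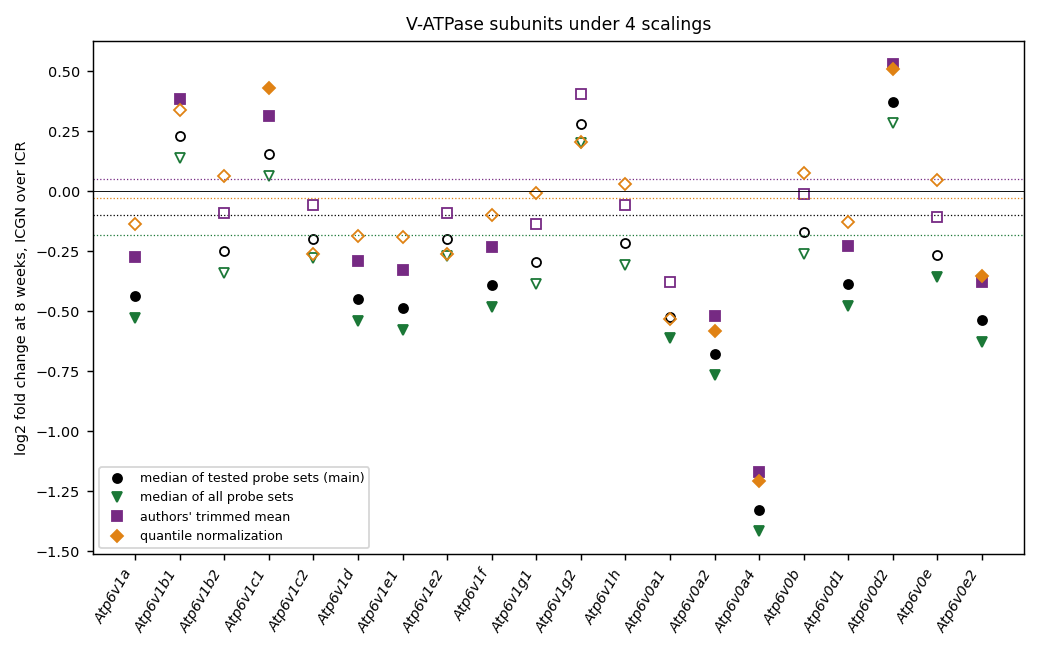
Log2 fold change of ICGN over ICR cortex at 8 weeks for 20 V-ATPase subunits under 4 scalings of the arrays. Filled symbols are called at an adjusted p of 0.05, open ones are not, and dotted lines mark the median of all tested genes under the scaling of the same colour. Atp6v0a2, Atp6v0a4 and Atp6v0e2 are filled and below 0 under all 4 scalings, while subunits such as Atp6v1a and Atp6v1f are open under quantile normalization.

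Of the 6 V-ATPase subunits with restricted expression, Atp6v0a4 fell and Atp6v0d2 rose at both ages. That is 33.3% of the 6 at each age, where 33.1% of all genes were called at 8 weeks and 3.84% at 4 weeks. Atp6v0a4 encodes a4, an a subunit enriched in intercalated cells though not confined to them, whose loss in people causes distal renal tubular acidosis with hearing loss. At 8 weeks it had signals of 266, 278 and 353 in ICGN arrays, against 630.3, 974 and 715 in ICR arrays. Every ICGN array lay below every ICR array, and the level was 2.51-fold lower (log2 -1.33 ± 0.18 SE, adjusted p = 0.00012). At 4 weeks the signals were 465, 434 and 672 in ICGN arrays, against 977, 1045 and 1128 in ICR arrays, again without overlap (2.02-fold lower, log2 -1.01 ± 0.18 SE, adjusted p = 0.00621). These calls held under all 25 alternative settings at each age, but they rest on 1 probe set.

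Atp6v0d2 encodes d2, a d isoform of kidney, bone-resorbing osteoclasts and epididymis. At 4 weeks it had signals of 854, 778 and 730.1 in ICGN arrays, against 456, 433 and 478 in ICR arrays, with no overlap (1.71-fold higher, log2 0.77 ± 0.12 SE, adjusted p = 0.00322). At 8 weeks the signals were 638, 676 and 779.7 in ICGN arrays, against 545, 448 and 626 in ICR arrays. The groups lay apart by a small margin, and the level was 1.30-fold higher (log2 0.37 ± 0.12 SE, adjusted p = 0.0325). A further probe set was called higher at both ages, by 0.52 at 8 weeks and 0.62 at 4 weeks. The call at 8 weeks was lost with all-probe-set median scaling (0.28, adjusted p = 0.186), in 3 other settings, and without ICGN replicate 2 or 3 or ICR replicate 1 or 2. Without 1 of these arrays the adjusted p lay between 0.0537 and 0.133. Atp6v0a4 and Atp6v0d2, which sit in the same V0 part, thus differed between the strains in opposite directions.

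Atp6v1b1 encodes B1, the B isoform of intercalated cells. It had signals of 482, 539 and 545 in ICGN arrays at 8 weeks, against 447, 480.0 and 407 in ICR arrays. At 4 weeks they were 539, 574 and 728 in ICGN arrays, against 392, 444 and 539.8 in ICR arrays. ICGN arrays were higher without overlap at 8 weeks, but neither difference was called (log2 0.23, adjusted p = 0.217 and log2 0.41, adjusted p = 0.117). With the authors' scaling Atp6v1b1 was called higher at 8 weeks (0.38, adjusted p = 0.0439). Atp6v1c2, another restricted subunit, was at -0.20 at 8 weeks and 0.43 at 4 weeks, and was called lower at 8 weeks without ICR replicate 2 of that age (-0.45, adjusted p = 0.0427). Atp6v1e2 and Atp6v1g2 had low signals and were not called. Over all 12 arrays with age means removed, the non-member genes most like Atp6v1b1 were Bcap29 (Pearson r = 0.942), Usp22 (0.920), Sesn2 (0.911), Fmo4 (0.908) and Tcp11l2 (0.889). Among the acid-base genes the most alike were Slc26a4 (0.718), Atp4a (0.682) and Atp6v0d2 (0.627). These values describe 12 arrays that also share the strain difference.

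**Figure D3:**
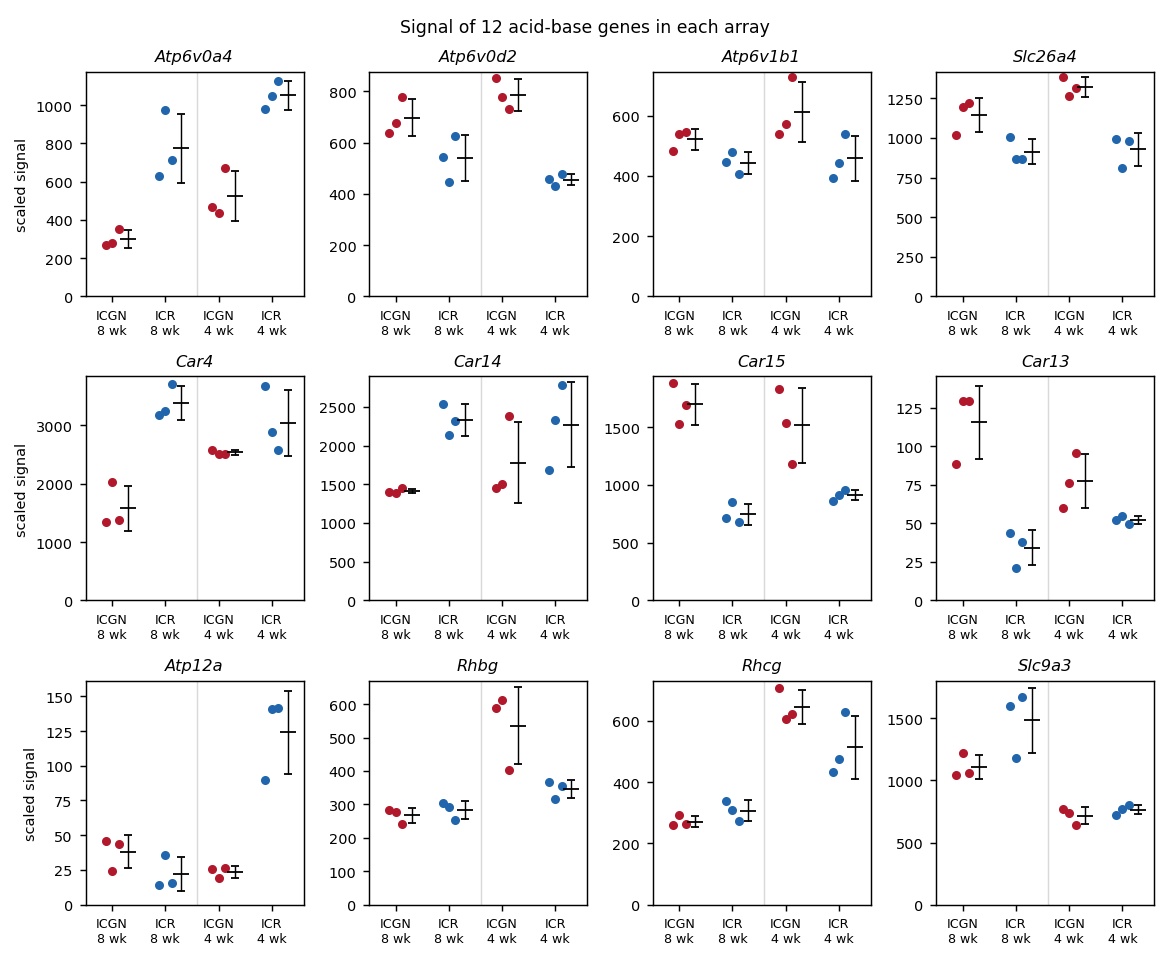
Scaled signal of 12 acid-base genes in each array (points, red for ICGN and blue for ICR), with the mean and SD of the 3 arrays beside them. The vertical line parts 8 weeks (left) and 4 weeks (right). Atp6v0a4 is below ICR in every ICGN array at both ages, Car15 and Slc26a4 are above, and Atp12a stands out in ICR cortex at 4 weeks, where its arrays read between 89.6 and 142.

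The H,K-ATPases exchange protons for potassium. Atp12a, the non-gastric form, had signals of 25.4, 18.9 and 26.2 in ICGN arrays at 4 weeks, all at or below the median signal of their array, against 89.6, 141 and 142 in ICR arrays. It was 3.86-fold lower (log2 -1.95 ± 0.28 SE, adjusted p = 0.00181), and the size of this difference depends on the offset added before the log, with values between -2.34 and -1.30 over all alternatives. At 8 weeks the signals were 46.2, 24.4 and 43.7 in ICGN arrays, against 13.9, 35.8 and 15.5 in ICR arrays, which overlap (log2 0.61, adjusted p = 0.112). Without ICR replicate 2, the highest ICR array, Atp12a was called higher at 8 weeks (0.90, adjusted p = 0.0253). All 3 ICR arrays at 8 weeks were at or below their array's median signal. Atp4a, the gastric form, had signals of 222, 229 and 175 in ICGN arrays at 8 weeks, against 143, 131 and 63.3 in ICR arrays, and was 1.86-fold higher without overlap (log2 0.89 ± 0.26 SE, adjusted p = 0.0166). This call was lost without ICGN replicate 1 (adjusted p = 0.0542), without ICGN replicate 2 (0.0547) and without ICR replicate 3 (log2 0.56, adjusted p = 0.0718). At 4 weeks Atp4a was at 0.64 (adjusted p = 0.203).

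Carbonic anhydrases interconvert carbon dioxide and bicarbonate. Among the 14 tested, 2 rose and 3 fell at 8 weeks (35.7%, close to the 33.1% of all genes called), and 1 rose at 4 weeks (7.14%, against 3.84% of all genes). The 3 that fell are membrane enzymes of tubule cells. Car4, anchored to the brush border of the proximal tubule, had signals of 1343, 2022 and 1371 in ICGN arrays at 8 weeks, against 3173, 3238 and 3706 in ICR arrays. Every ICGN array was below every ICR array, and the level was 2.16-fold lower (log2 -1.11 ± 0.15 SE, adjusted p = 0.000133), with both probe sets called. At 4 weeks Car4 had signals of 2581, 2509.9 and 2506 in ICGN arrays, against 3662, 2874 and 2579 in ICR arrays, which overlap, and was not called (log2 -0.25, adjusted p = 0.444).

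Car14, a transmembrane enzyme of the proximal tubule, had signals of 1402, 1391 and 1445 in ICGN arrays at 8 weeks, against 2539, 2133 and 2315 in ICR arrays (1.64-fold lower, log2 -0.71 ± 0.19 SE, adjusted p = 0.00944). Car12, a transmembrane enzyme of tubule and duct cells, had 2061, 2406 and 2056 in ICGN arrays, against 3495, 3006 and 3031 in ICR arrays (1.46-fold lower, log2 -0.55 ± 0.11 SE, adjusted p = 0.00246). Neither pair of groups overlaps. Both calls were lost under quantile normalization (Car14 -0.48, adjusted p = 0.0600, Car12 -0.28, adjusted p = 0.0659), and that of Car12 also with the mean of its probe sets (-0.47, adjusted p = 0.0981). At 4 weeks Car14 was at -0.36 and Car12 at -0.13, and neither was called.

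Car15 and Car13 moved the other way. Car15, an enzyme anchored to the outer cell surface, had signals of 1879, 1527 and 1689.8 in ICGN arrays at 8 weeks, against 711, 850.0 and 679 in ICR arrays. It was 2.26-fold higher (log2 1.18 ± 0.14 SE, adjusted p = 5.64e-05), a call that held under all 25 alternatives. At 4 weeks it had 1834, 1535 and 1179.9 in ICGN arrays, against 865, 916 and 956 in ICR arrays, and was 1.63-fold higher (log2 0.70 ± 0.14 SE, adjusted p = 0.0139). The groups lay apart at both ages, and the call at 4 weeks was lost without ICGN replicate 1 (adjusted p = 0.0670) or ICGN replicate 2 (adjusted p = 0.0630). Car13, a cytosolic enzyme, had signals of 88.3, 129 and 129 in ICGN arrays at 8 weeks, against 43.6, 21.4 and 38.0 in ICR arrays, and was 2.82-fold higher (log2 1.50 ± 0.22 SE, adjusted p = 0.000254). At 4 weeks its arrays also lay apart, with 60.2, 76.4 and 95.6 in ICGN arrays, against 52.1, 54.9 and 49.7 in ICR arrays, but the difference of 0.46 was not called (adjusted p = 0.299).

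Car2, the abundant cytosolic enzyme of tubule and intercalated cells, had signals of 4887, 6454 and 6156 in ICGN arrays at 8 weeks, against 6085, 5796 and 6036 in ICR arrays. The groups overlap, and the log2 fold change was -0.04 ± 0.10 SE (adjusted p = 0.781). Under quantile normalization Car2 was called higher instead (0.26, adjusted p = 0.0230). The mitochondrial enzyme Car5b was at -0.18 at 8 weeks and -0.02 at 4 weeks, and was not called.

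Car3, a cytosolic enzyme abundant in fat and muscle, varied widely among the arrays of a group. Its signals were 305, 3069 and 804 in ICGN arrays at 8 weeks, against 2322, 5854 and 5103 in ICR arrays. At 4 weeks they were 1478, 419.9 and 24.7 in ICGN arrays, against 2439.9, 1514 and 142 in ICR arrays. The groups overlap at both ages, and the log2 fold changes of -2.15 ± 1.22 SE and -1.55 ± 1.22 SE were not called (adjusted p = 0.193 and 0.568). Fitted on the 8-week arrays alone, the difference at 8 weeks was called (adjusted p = 0.0386). Adipoq, which encodes the fat cell hormone adiponectin, had 34.5, 278 and 80.9 in ICGN arrays at 8 weeks, against 108, 522 and 439 in ICR arrays. At 4 weeks Adipoq had 172, 63.7 and 2.29 in ICGN arrays, against 294, 182 and 17.5 in ICR arrays. Within each group the arrays stood in the same order for Car3 and Adipoq. At each age this order by replicate number was the same in ICGN and ICR. For Car3 each ICGN array lay below the ICR array of the same number. With the replicate number as a block Car3 was called lower in ICGN (adjusted p = 0.0412 at 4 weeks and 0.00141 at 8 weeks). Between the strains 33.1% of all genes were called at 8 weeks and 3.84% at 4 weeks. Of the 4 tested fat and muscle markers 1, Acta1, was called higher at 8 weeks and none at 4 weeks, where 2 had an unadjusted p under 0.05. The summed level of the 4 was 1569 to 2699 in ICGN arrays at 8 weeks, against 1983 to 3509 in ICR arrays, and 2139 to 3095 in ICGN arrays at 4 weeks, against 2884 to 4793 in ICR arrays. The part of fat tissue in the Car3 values was not tested.

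Among the 7 tested Slc4 transporters, Slc4a3 alone was called between the strains, at 8 weeks. That is 14.3% of the 7, where 33.1% of all genes were called. Slc4a3, an anion exchanger best known from brain and heart, had signals of 65.8, 47.7 and 44.4 in ICGN arrays, against 21.5, 21.4 and 6.27 in ICR arrays, and the ICR arrays were all at or below their array's median signal. It was 2.39-fold higher (log2 1.26 ± 0.35 SE, adjusted p = 0.0144), a size that depends on the settings, with log2 values between 0.68 and 1.78 over all alternatives. The call was lost without ICGN replicate 1 (adjusted p = 0.0589) or ICR replicate 3 (log2 0.96, adjusted p = 0.0654). Slc4a4, the basolateral bicarbonate exit of the proximal tubule, had signals of 4948, 6280.3 and 5802 in ICGN arrays at 8 weeks, against 6369, 6991 and 7016 in ICR arrays. Although the groups did not overlap, the difference was not called (log2 -0.26, adjusted p = 0.191). At 4 weeks 1 of its 4 tested probe sets was called lower (-1.38, adjusted p over probe sets = 0.0323), while the others lay between -0.29 and 0.02.

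Slc4a1, the anion exchanger of red cells and of acid-secreting intercalated cells, had signals of 162, 158 and 130.3 in ICGN arrays at 8 weeks, against 200.0, 193 and 196 in ICR arrays. ICGN arrays were all lower, but the difference was not called (log2 -0.37, adjusted p = 0.0674). It was called with all-probe-set median scaling (-0.45, adjusted p = 0.0249), without a filter (-0.45, adjusted p = 0.0342), and without ICGN replicate 3 of 4 weeks (adjusted p = 0.0376). The widely expressed exchanger Slc4a2 was at -0.01 at 8 weeks and -0.04 at 4 weeks, and Slc4a9 of bicarbonate-secreting intercalated cells was at -0.05 and 0.35, none of them called. At 4 weeks limma called 0 of the 7 Slc4 genes, near the 3.84% of all genes called, with 1 at an unadjusted p under 0.05.

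Slc26a4 encodes pendrin, the apical chloride-bicarbonate exchanger of bicarbonate-secreting intercalated cells. At 4 weeks it had signals of 1386, 1265 and 1314 in ICGN arrays, against 995, 809.8 and 979.6 in ICR arrays (1.42-fold higher, log2 0.51 ± 0.11 SE, adjusted p = 0.0178). At 8 weeks the signals were 1021, 1198 and 1218 in ICGN arrays, against 1007, 868 and 865 in ICR arrays (1.25-fold higher, log2 0.32 ± 0.11 SE, adjusted p = 0.0343). The groups lay apart at both ages. The call at 4 weeks was lost without ICGN replicate 1 (adjusted p = 0.0834) or 2 (0.0528) and without ICR replicate 2 (0.0744). The call at 8 weeks was lost without ICGN replicate 2 (0.104) or 3 (0.119), and without ICR replicate 2 (0.0929) or 3 (0.107). With all-probe-set median scaling neither was called (adjusted p = 0.0792 at 4 weeks and 0.225 at 8 weeks), nor without a filter (0.105 and 0.266). The call at 8 weeks was also lost with no trend (0.0608), with the replicate number as a block (0.0567) and on the 8-week arrays alone (0.0607). It held in 16 of 25 alternatives, and the call at 4 weeks in 20 of 25.

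The ammonia channels Rhbg and Rhcg move ammonia across the basolateral and the apical side of collecting duct cells. Rhbg had signals of 588, 614 and 402 in ICGN arrays at 4 weeks, against 367, 316 and 354 in ICR arrays, and was 1.51-fold higher without overlap (log2 0.59 ± 0.15 SE, adjusted p = 0.0391). This call held in 13 of 25 alternatives and in 4 of the 12 that leave out an array, with an adjusted p of up to 0.172 without ICGN replicate 2. At 8 weeks Rhbg had 284, 278 and 242 in ICGN arrays, against 303, 293 and 253 in ICR arrays (log2 -0.08, not called). Rhcg was at 0.34 at 4 weeks and -0.17 at 8 weeks, and Foxi1 at 0.27 and -0.04, none of them called. Slc9a3, the proximal sodium-proton exchanger NHE3, had signals of 1044, 1217 and 1064 in ICGN arrays at 8 weeks, against 1598, 1181 and 1671 in ICR arrays. It was called lower (1.32-fold, log2 -0.40 ± 0.13 SE, adjusted p = 0.0262) although 1 ICR array overlaps the ICGN arrays. The call was lost in 9 of 25 alternatives, among them the authors' scaling (-0.25, adjusted p = 0.156) and each setting that left out ICGN replicate 1 or 3 or ICR replicate 1 or 3 at 8 weeks (adjusted p between 0.0800 and 0.112).

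Whether the strain difference itself differed between the ages was tested by the interaction of strain and age. For 7 of 49 genes it did, 1 higher and 6 lower at 8 weeks relative to 4 weeks, while 9.61% of all genes were called (3.54% higher and 6.07% lower). The split was 1 higher and 3 lower with all-probe-set median scaling, 2 and 2 with the authors' scaling and 1 and 1 with quantile normalization, while over all genes the share of higher calls was 36.8% here and 28.9%, 59.3% and 54.2% with these scalings. For Atp12a the difference was 2.56 ± 0.40 SE on the log2 scale (adjusted p = 0.00298), and for Atp6v0a2 it was -0.68 ± 0.15 SE (adjusted p = 0.0133). Both held in all alternatives, 23 and 24 of them. The size for Atp12a depends on the settings, with values between 1.62 and 3.19. All its arrays of ICGN at 4 weeks and of ICR at 8 weeks were at or below their array's median signal. Car4 was at -0.87 ± 0.22 SE (adjusted p = 0.0244) and held in 16 of 24. It was lost with quantile normalization (-0.70, adjusted p = 0.0555) and with no trend (adjusted p = 0.0583). Car4 was also lost without ICGN replicate 2 or ICR replicate 2 or 3 at 4 weeks. The same held without ICGN replicate 1 or 3 or ICR replicate 3 at 8 weeks (adjusted p between 0.0529 and 0.0652 for these arrays). The other 4, the V-ATPase subunits Atp6v1d (-0.53), Atp6v1e1 (-0.47), Atp6v1f (-0.41) and Atp6v0d1 (-0.40), were called with the scaling used here but not with any of the other 3 scalings. Of the 12 settings that leave out an array, Atp6v1d and Atp6v1e1 held in 3 each, Atp6v1f in 4 and Atp6v0d1 in 1. For Atp6v0a4, lower at both ages, the difference between the ages was -0.31 ± 0.25 SE (adjusted p = 0.457).

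The age comparisons set 8 weeks against 4 weeks within a strain. Because the arrays of the ages were scaled apart by the authors, age and array processing cannot be told apart here. In ICGN cortex 15 of 49 genes were called, 3 higher and 12 lower at 8 weeks, where 22.7% of all genes were called (9.47% higher and 13.3% lower). In ICR cortex 13 of 49 were called, 7 higher and 6 lower, where 32.6% of all genes were (19.1% higher and 13.5% lower). The arrays of the ages lay apart for 28 of 49 genes in ICGN cortex (5 higher, 23 lower), where 42.6% of all genes did so, and for 24 of 49 in ICR cortex (13 higher, 11 lower), where 44% did so. With the authors' scaling the split in ICR turned to 4 higher and 10 lower, with quantile normalization to 4 higher and 8 lower, and over all genes the share of calls that were higher in ICR was 58.6% here, 37.8% with the authors' scaling and 45.1% with quantile normalization.

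The ammonia channels and several anion exchangers were lower at 8 weeks. Rhcg had signals of 259, 291 and 263 in ICGN arrays at 8 weeks, against 709, 606 and 624 at 4 weeks (log2 -1.22 ± 0.14 SE, adjusted p = 6.83e-05). In ICR cortex Rhcg had 340.0, 309 and 272 at 8 weeks, against 434, 477 and 630.0 at 4 weeks (log2 -0.71 ± 0.14 SE, adjusted p = 0.0014). In both strains the ages did not overlap. Slc4a1 fell by 0.93 in ICGN and by 0.58 in ICR cortex, and Slc4a2 by 0.73 and 0.76. Rhbg fell by 0.95 in ICGN cortex and Slc4a9 by 0.72, while in ICR cortex they were at -0.28 and -0.33 and not called. None of these genes was called in the interaction, so the age difference was not shown to differ between the strains. Rhbg came nearest (-0.67, adjusted p = 0.0570) and was called with all-probe-set median scaling (-0.75, adjusted p = 0.0463), with array weights (-0.77, adjusted p = 0.0240) and without ICGN replicate 3 of 4 weeks (-0.86, adjusted p = 0.0126). Rhcg was at -0.51 (adjusted p = 0.110), and was called without ICR replicate 3 of 4 weeks (-0.66, adjusted p = 0.0376).

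Slc9a3 was higher at 8 weeks in both strains, with 1044, 1217 and 1064 in ICGN arrays at 8 weeks, against 774, 737 and 638 at 4 weeks (log2 0.62 ± 0.13 SE, adjusted p = 0.00366), and by 0.93 in ICR cortex (adjusted p = 0.00012). Atp6v1h, a regulatory subunit of V1, was higher by 0.41 in ICGN and by 0.87 in ICR cortex, but with the mean of its probe sets neither was called, and in ICR the value was then 0.11. Of the genes named next, Atp6v1a (-0.15, adjusted p = 0.300) and Atp6v1c1 (0.07, adjusted p = 0.669) were not called in ICGN with the mean of their probe sets either. The other probe set of Atp6v1a was at 0.05 there and those of Atp6v1c1 at -0.08 and -0.06. In ICGN cortex Car5a (-0.88), Atp6v0a4 (-0.77), Atp6v0a1 (-0.76), Car4 (-0.70), Atp6v1c2 (-0.61), Atp6v1a (-0.35) and Atp6v0b (-0.32) fell with age as well, and Atp6v1c1 (0.34) rose. Car5a had low signals of 47.5, 24.7 and 38.8 at 8 weeks, 1 of them at or below its array's median signal. Its value lay between -1.06 and -0.57 over the alternatives. The other tested probe sets of Atp6v0b were at -0.11 and -0.33 in ICGN and not called (adjusted p over probe sets = 0.441 and 0.0753). In ICR cortex Car9 (0.76), Atp6v0a2 (0.41), Atp6ap1 (0.35), Atp6v1e1 (0.28) and Atp6v1f (0.28) rose, and Atp12a (-2.08), Atp4a (-0.95) and Slc4a11 (-0.50) fell. Atp12a had 13.9, 35.8 and 15.5 in ICR arrays at 8 weeks, against 89.6, 141 and 142 at 4 weeks, so this gene had a high signal in 1 of the 4 groups, and its age difference in ICR lay between -2.56 and -1.35 over the alternatives.

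Some age calls depended on the scaling. In ICR cortex Atp6ap1 was lost with the authors' scaling (0.22, adjusted p = 0.0588) and with quantile normalization (0.17, adjusted p = 0.145), and so was Atp6v1f (0.15 under both, adjusted p = 0.140 and 0.171). Atp6v1e1 was lost with all 3 other scalings (adjusted p between 0.0794 and 0.201) and with the mean of its probe sets (0.13, adjusted p = 0.436), and Slc4a11 with all-probe-set median scaling (adjusted p = 0.0542). In ICGN cortex Atp6v0b, Atp6v1a, Atp6v1c1 and Atp6v1h were lost with all-probe-set median scaling (adjusted p between 0.0610 and 0.198).

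Some age calls did not hold when a single array was left out, in some cases whichever array of the strain it was. In ICGN cortex Atp6v0a1 was lost without 4-week replicate 1 or 8-week replicate 3 (adjusted p up to 0.0699) and Car5a without replicate 2 of either age (up to 0.0749). Atp6v1a was lost without 4-week replicate 2 or 3 or 8-week replicate 1 or 3 (up to 0.0948), and Atp6v1h without 4-week replicate 1 or 3 or 8-week replicate 2 or 3 (up to 0.117). Atp6v0b was lost without any of the 6 ICGN arrays (up to 0.146), Atp6v1c2 without any but 4-week replicate 3 (up to 0.113), and Atp6v1c1 without any but 8-week replicate 1, and without ICR 4-week replicate 1 or 3 (up to 0.190). In ICR cortex Atp4a was lost without 4-week replicate 3 (0.0579) and Car9 without 8-week replicate 2 (0.0506). Atp6v1e1 was lost without 4-week replicate 1 or 2 or 8-week replicate 2 or 3 (up to 0.103), and Slc4a11 without these arrays or any ICGN array but 4-week replicate 3 (up to 0.145). The other 17 age calls, Atp6ap1 and Atp6v1f among them, held whichever array was left out.

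**Figure D4:**
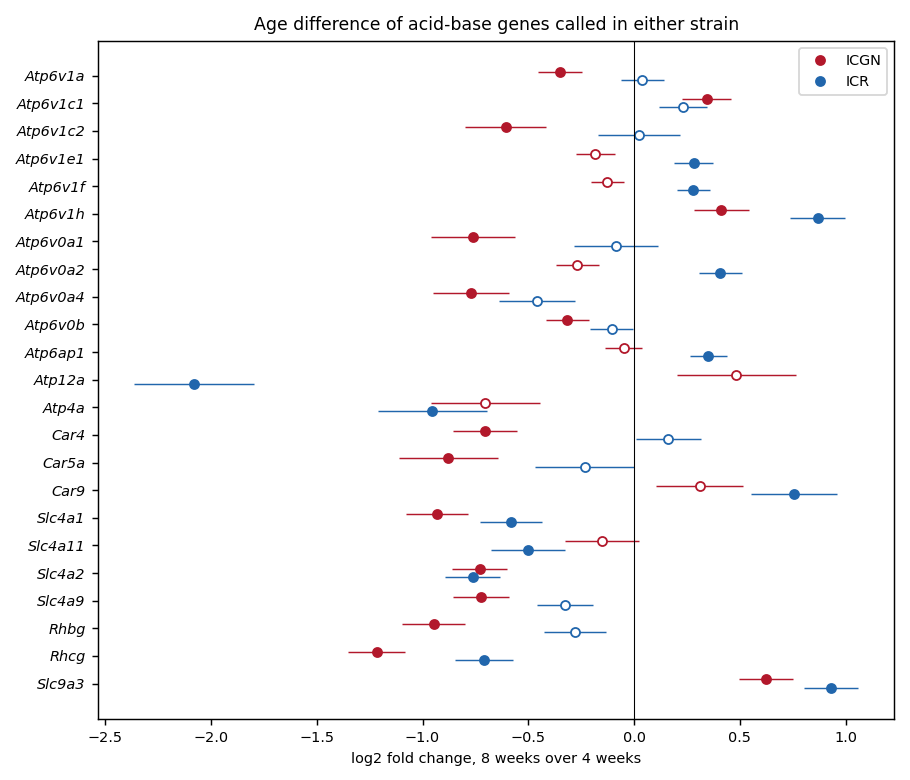
Log2 fold change of 8 weeks over 4 weeks for the 23 acid-base genes called in either strain, in ICGN (red) and ICR (blue) cortex, with standard errors as bars. Filled points are called at an adjusted p of 0.05 and open points are not. Rhcg, Slc4a1 and Slc4a2 lie left of 0 and filled in both strains, Slc9a3 and Atp6v1h right of 0, and Atp12a stands apart in ICR at -2.08.

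Other genes of acid-base handling were followed in 3 lists. At 8 weeks 11.4% of all genes rose and 21.7% fell. These lists and the cell markers below were counted with the scaling used here only. Over all genes 34.4% of the 8-week calls were higher with it. That share was 24.7% with all-probe-set median scaling, 60.2% with the authors' scaling and 50.7% with quantile normalization. Of 7 tested genes that make or carry ammonia, 5 fell at 8 weeks and none rose, with a median of -0.40. Those with the lowest p were Ogdh, which burns the carbon left from glutamine (-0.59), Slc12a2, a sodium-potassium-chloride cotransporter that also carries ammonium (-0.74), Glud1, the dehydrogenase that frees ammonia from glutamate (-0.38), and the glutamine carrier Slc7a8 (-0.53). Of 18 further exchangers and regulators 10 fell and 1, the chloride channel gene Cftr (0.65), rose, with a median of -0.47. Those with the lowest p were the potassium channel genes Kcnj16 (-0.80) and Kcnj15 (-0.64) and the scaffold genes Slc9a3r1 (-0.61) and Pdzk1 (-0.52), whose proteins bind NHE3 and other transporters of the brush border. Of 12 assembly and regulatory factors of the V-ATPase 3 fell, Vma21 (-0.49), Wdr7 (-0.43) and Rogdi (-0.31), none rose, and the median was -0.12, so that the share that fell was near that of all genes. At 4 weeks only 2% of all genes rose and 1.83% fell. Of the 3 lists limma then called 0 of 7, 2 of 18 (Slc26a1 higher by 0.92, and Kcnk5, which fell by 0.76) and 0 of 12. At that age 2 of the 7 and 1 of the 12 had an unadjusted p under 0.05. Of 11 lysosomal genes, where the V-ATPase also works, Hexa rose (0.63) and Gusb (-1.38), Mcoln1 (-0.48) and Lamp2 (-0.35) fell at 8 weeks, with a median of -0.20.

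Markers of the cells that carry these genes moved as follows. Beside them, 11.4% of all genes rose and 21.7% fell at 8 weeks, and 2% rose and 1.83% fell at 4 weeks. Of 11 tested proximal tubule markers 8 fell at 8 weeks and none rose, with a summed level of 57250.0 to 65841 in ICGN arrays, against 82540.3 to 92088 in ICR arrays. At 4 weeks limma called 0 of the 11, near the 3.84% of all genes called at that age, with 2 at an unadjusted p under 0.05. Their part in the values of Car4, Car14, Slc9a3 and the broadly used V-ATPase subunits was not tested. Of 10 intercalated cell markers Spink8 rose (0.69) and Insrr (-0.83) and Slc26a7 (-0.58) fell at 8 weeks, with sums of 3205 to 3385 in ICGN arrays, against 2605 to 3099 in ICR arrays. At 4 weeks Spink8 (1.29), Hepacam2 (0.96) and Aqp6 (0.66) rose, none fell, and the sums were 4005 to 4469 in ICGN arrays, against 2909 to 3416 in ICR arrays. Slc26a4, Rhbg and Atp6v0d2 were higher at 4 weeks beside these markers, and Atp6v0a4 was lower beside them. The part of cell numbers in either was not tested.

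Between the strains 33.1% of all genes were called at 8 weeks and 3.84% at 4 weeks. Of 10 principal cell markers, 1 rose (Scnn1g) and 1 fell (Aqp3) at 8 weeks, and limma called 0 at 4 weeks, with 4 at an unadjusted p under 0.05. With age 6 of 10 fell in ICGN and 6 fell and 1 rose in ICR, where 13.3% and 13.5% of all genes fell. Of the 10 intercalated cell markers 4 fell with age in ICGN (Aqp6, Slc26a7, Spink8 and Oxgr1) and 1 in ICR (Aqp6), a share near that of all genes in ICR. The difference between the lists was not tested. Of 8 markers of the thick limb and distal convoluted tubule 1 rose and 4 fell at 8 weeks, and 2 fell at 4 weeks. Macrophage markers were higher at both ages, 9 of 10 at 8 weeks and 7 of 10 at 4 weeks, with sums of 6843 to 8402 in ICGN arrays, against 3079 to 4075 in ICR arrays, at 8 weeks. Atp6v0d2 is also a gene of osteoclasts and related macrophages. Of 5 osteoclast-type markers, Mmp9 and Gpnmb did not pass the signal filter, and limma called none of the other 3 at either age, with 2 at an unadjusted p under 0.05 at 8 weeks and 0 at 4 weeks. Of 5 fibroblast markers 4 rose at 8 weeks and 1 fell at 4 weeks. Slc4a1 is also a red cell gene. Of the erythroid markers Hba-a1, Epb42 and Rhag did not pass the signal filter, and Alas2 fell by 1.18 at 8 weeks and by 0.97 at 4 weeks in ICGN cortex. With age Alas2 fell by 1.91 in ICGN and by 1.69 in ICR cortex, beside the fall of Slc4a1, and its part in that fall was not tested.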

How the data were processed

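Total RNA of renal cortex was hybridised to 12 Affymetrix Mouse Genome 430 2.0 arrays, 3 for each of 4 groups. The deposited values are linear intensity (signal) values made by the authors with MAS5, per the submitters' processing notes; the sources used here give no software version. Their mean without the outer 2% at each end was 100 on each 4-week array and 500 on each 8-week array. Probe sets were named by the platform annotation, which gave 34945 of 45101 probe sets 1 symbol, 932 several and 9160 none, beside 64 controls. A probe set was tested where it exceeded its own array's median in at least 3 of 12 arrays. Arrays were scaled to equal medians of the tested probe sets (175), and log2(signal + 11.1) was fitted, the offset being the 25th percentile of all values. Fold changes are on this scale, which understates those of low signals. limma 3.58.1 in R 4.3.3 fitted 4 group means with an intensity trend (8 residual degrees of freedom). Benjamini-Hochberg adjustment ran over 12385 genes, each given by its brightest probe set, or over 24790 probe sets where so stated, and a gene was called at 0.05 or less. The code was tested on simulated data.

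No detection calls were used, and the number of arrays limits the precision. Same-numbered arrays of ICGN and ICR were not paired in the fit. Over all tested probe sets, r of their deviations from the group means was -0.0708 to 0.0842 at 4 weeks. At 8 weeks it was -0.0699 to 0.175. These values do not speak for single genes, and Car3 and Adipoq kept the same array order in both strains. Alternatives changed the scaling, offset, filter, probe set rule, moderation, array weights, block, arrays fitted and each array left out. Named genes were the called members, a set of well-known members and up to 4 called genes of each other list by p. Further genes were named to account for a count, after their values were seen. The members and lists were chosen with earlier results of these data known.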

Additional observations from a re-analysis of the deposited data

Results flagged for a closer look

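For 7 acid-base genes the strain difference at 8 weeks differed from that at 4 weeks by the interaction test of limma, with no explanation weighed here. Atp12a had a log2 fold change of ICGN over ICR of 0.61 at 8 weeks and -1.95 at 4 weeks, a difference of 2.56, which lay between 1.62 and 3.19 over the alternatives. Car4 was at -1.11 at 8 weeks and -0.25 at 4 weeks, a difference of -0.87 that was called with 3 of the 4 scalings. Atp6v0a2 was at -0.68 at 8 weeks and -0.00 at 4 weeks, a difference of -0.68. Atp6v1d was at -0.45 and 0.08 at these ages, a difference of -0.53. Atp6v1e1 was at -0.49 and -0.02, a difference of -0.47. Atp6v1f was at -0.39 and 0.02, a difference of -0.41. Atp6v0d1 was at -0.39 and 0.01, a difference of -0.40. The last 4 were called with 1 of the 4 scalings.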

How the results depend on the processing

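Single-gene values were recomputed for the called members and, between strains and in the interaction, the well-known members, so calls that other members gained are not in these counts. Of them, 2476 kept their side of the threshold (52 of these, never called, changed sign), 209 lost their call, 16 gained one and 1 reversed: Car2 at 8 weeks, at 0.26 under quantile normalization beside -0.04. The counts of called genes that moved most were, at 4 weeks, 271 with no filter and 952 with array weights beside 475, and, at 8 weeks, 2719 with the 75th percentile filter beside 4100. In the interaction they were 624 with no filter and 722 with no trend beside 1190. Of the acid-base genes, 7 were called in the interaction, against 4 with all-probe-set median scaling, 4 with the authors' scaling, 2 with quantile normalization, 3 with no filter, 2 with the 75th percentile filter, 2 with no trend and 4 with the replicate block. The causes were not tested.

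Leaving out each array in turn gave 205 to 539 genes and 3 to 6 acid-base genes at 4 weeks, 3155 to 4134 and 15 to 21 at 8 weeks, and 662 to 1339 and 2 to 6 in the interaction. It gave 3136 to 4087 and 11 to 15 with age in ICR, and 1856 to 2980 and 9 to 17 with age in ICGN. The lowest counts at 4 weeks came without ICGN replicate 2 of 4 weeks (205 genes) and ICGN replicate 1 of 4 weeks (3 acid-base genes), and in the interaction without ICGN replicate 3 of 8 weeks (662) and ICGN replicate 2 of 4 weeks (2). With age in ICGN they came without ICGN replicate 2 of 4 weeks (1856) and ICGN replicate 3 of 8 weeks (9). With the replicate number as a block 372 genes were called at 4 weeks, 3748 at 8 weeks and 924 in the interaction, with 6, 18 and 4 acid-base genes, of which 5 and 16 were shared with the strain comparisons without it. Car3 was called lower in ICGN with the block (adjusted p = 0.0412 at 4 weeks and 0.00141 at 8 weeks). Genes near background, such as Atp12a, Slc4a3 and Car13, have folds that depend on the offset.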
